A study of Mus musculus with 8 samples.

Results

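Oxidative phosphorylation subunits are the nuclear-encoded proteins of the respiratory chain (complexes I to IV) and of the ATP synthase (complex V). The 87 members described here are all genes whose platform symbol begins with Nduf, Uqcr, Cox4 to Cox8 or Atp5, or is Sdha, Sdhb, Sdhc or Sdhd, and they were taken from 17097 measured genes. They comprise 39 genes of complex I (7 of them assembly factors), 4 of complex II, 7 of complex III, 19 of complex IV, 17 of complex V and 1 gene that is a pseudogene by its name. Of a gene's probe sets with a single symbol, the brightest on average stands for the gene.

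The fibroblasts came from the dermis of 8 male mice of the C57Bl/6 strain, of which 4 were 2 months old (young) and 4 were 18 months old (old), with no genetic change or treatment named in the labels. Fibroblasts carrying surface Pdgfra and CD34, and without EpCam, CD31, CD24, CD45 or CD117, were sorted from collagenase-digested skin freed of its subdermis. Each mouse gave 5000 cells, whose RNA went through 21 amplification cycles and onto an Affymetrix array of its own, so the replicates are separate animals. The mice fall into 2 runs of consecutive numbers in the sample titles, each with 2 young and 2 old mice (replicates 1 and 2, and replicates 3 and 4, of each age). A pair of mice of each age was collected per day, and the labels do not tie the individual mice to the days.

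Electrons from NADH enter the chain at complex I and those from succinate at complex II. They pass through complex III and cytochrome c to oxygen at complex IV, while complexes I, III and IV pump protons that drive ATP synthesis by complex V. Each of the pumping complexes has a catalytic core, part of it encoded by mitochondrial DNA, surrounded by many small accessory subunits. Several subunits of complex IV exist as a widely expressed form and a form restricted to heart, skeletal muscle, brown fat, lung or testis. No probe set here carried a symbol of the genes encoded by mitochondrial DNA.

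The values are log2 expression values, on which a difference of 1 is a 2-fold difference, and arrays were normalized to a common distribution, so each difference is relative to the rest of the array. Array medians lay between 5.06 and 5.14. Of the members, 83 lay above the median of all probe sets, 5.10, in at least 1 age. The other 4 were Sdhd, Cox7b2 and the assembly factors Ndufaf1 and Ndufaf6, dim in both ages and inside the range of the array's 23 non-specific control probe sets (2.98 to 7.20, median 3.91). Of 12 fibroblast markers 11 lay above the median of all probe sets, with Dcn between 12.98 and 13.10 and Cd34 between 10.76 and 11.05 on all arrays, and 2 fell with age: Thy1 by 0.61 ± 0.07 (limma adjusted p = 0.00176) and Fbln1 by 0.38 ± 0.09 (limma adjusted p = 0.0456). However, the brightest probe set of the sorting marker Pdgfra lay between 4.22 and 5.36 and changed by -0.59 ± 0.16 (limma adjusted p = 0.0808). Cd34 changed by 0.20 ± 0.06, without overlap (limma adjusted p = 0.129). Of the genes whose proteins were sorted against, Ptprc and Kit lay between 3.39 and 3.87 and Pecam1 between 5.76 and 6.30 on all arrays. Epcam lay between 4.96 and 5.13 in young and between 5.23 and 5.61 in old mice (limma adjusted p = 0.0584). Cd24a, the remaining one, lay between 7.90 and 8.18 in young and between 4.70 and 6.00 in old mice. It fell by 2.74 ± 0.27 (limma adjusted p = 0.000784). Keratinocyte markers stood apart on 1 array: their mean level was 6.92 in old replicate 3 and between 5.45 and 6.08 on the other arrays, with Krt10 at 9.13 against at most 7.21. Of these 9 markers, 7 had positive differences, with a median of 0.35, and 0 passed in limma. At an unadjusted p under 0.05, 2 were higher, Epcam and Krt5, and Krt5 changed by 1.12 ± 0.42 (limma adjusted p = 0.221).

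A single member, Cox8b, was clearly higher in old fibroblasts, and 3 small subunits, Atp5e, Atp5k and Ndufa3, were lower. In limma, 4 of the 87 members passed an adjusted p of 0.05 (4.60%), beside 3.97% of all genes. The member that rose is 1.15% of the members, beside 1.82% of all genes, and the 3 that fell are 3.45%, beside 2.15%. Among the 10757 genes above the median of all probe sets in an age, where nearly all members lie, 6.06% passed, 2.74% higher and 3.32% lower. In this fit the members' shares of calls were thus near or below the background of genes of that brightness. The members' differences leaned downward: 67 of 87 differences were negative (77.0%, against 46.2% of all genes and 50.8% of the brighter ones) and their median was -0.16, against 0.01 for all genes. At an unadjusted p under 0.05, 24 members were lower (27.6%, beside 8.28% of all genes and 12.1% of the brighter ones) and 2 were higher, beside 6.8% of all genes. In a bulk measurement, fewer cells of a type and less RNA per cell cannot be told apart.

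The upstream sequences of the 4 members that passed are shown because these genes did not move alike. Each is the 250 bases before the annotated start, 5′ to 3′ on the gene's strand, from RefSeq for GRCm38.p6, with capitals for matches to any of the 4 motifs searched. They lie at chr7:140900447-140900696 (minus strand) for Cox8b, chr2:174464102-174464351 (minus) for Atp5e, chr5:108434400-108434649 (minus) for Atp5k and chr7:3617123-3617372 (plus) for Ndufa3.
Cox8b: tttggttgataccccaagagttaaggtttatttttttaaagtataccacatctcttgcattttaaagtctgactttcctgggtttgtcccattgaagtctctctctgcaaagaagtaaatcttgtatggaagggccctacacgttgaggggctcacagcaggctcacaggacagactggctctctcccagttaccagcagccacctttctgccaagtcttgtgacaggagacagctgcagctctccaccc
Atp5e: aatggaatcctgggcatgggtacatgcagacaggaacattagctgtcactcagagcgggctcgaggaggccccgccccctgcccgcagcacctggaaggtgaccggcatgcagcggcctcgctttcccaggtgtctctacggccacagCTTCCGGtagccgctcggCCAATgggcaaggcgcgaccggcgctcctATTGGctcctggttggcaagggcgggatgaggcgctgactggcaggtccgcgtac
Atp5k: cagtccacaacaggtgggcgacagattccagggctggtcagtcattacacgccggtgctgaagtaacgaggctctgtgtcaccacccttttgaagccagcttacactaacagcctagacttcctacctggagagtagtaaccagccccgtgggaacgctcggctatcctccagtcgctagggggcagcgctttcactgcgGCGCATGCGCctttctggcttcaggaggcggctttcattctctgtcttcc
Ndufa3: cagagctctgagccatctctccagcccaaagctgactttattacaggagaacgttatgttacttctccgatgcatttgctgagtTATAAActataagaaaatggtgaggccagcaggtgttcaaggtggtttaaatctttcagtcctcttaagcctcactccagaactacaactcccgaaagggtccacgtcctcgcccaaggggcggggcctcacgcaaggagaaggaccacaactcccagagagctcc

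The searched motifs were the palindromic site of NRF1, a regulator of respiratory genes, on both strands, CCGGAAG (the core site of ETS factors such as GABP) on both strands, CCAAT on both strands, and TATAAA on the gene's strand. The window of Atp5k held the NRF1 site, that of Atp5e the ETS letters and 2 CCAAT matches, that of Ndufa3 TATAAA, and that of Cox8b none of the 4. GC content was 47.2% for Cox8b, 50.4% for Ndufa3, 57.6% for Atp5k and 65.6% for Atp5e. Windows were matched for 70 members, of which 13 held the NRF1 site (18.6%, against 4.23% of 27025 genes and 3.74% of 32851 promoter windows). The ETS letters were in 12 of the 70 (17.1%, against 7.83% of genes and 6.91% of windows), CCAAT in 31 (44.3%, against 37.5% and 33.8%) and TATAAA in 2 (2.86%, against 8.94% and 7.59%). A match describes these letters in this window and is not evidence of binding.

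Cox8b encodes the isoform of complex IV subunit VIII that is best known from heart, skeletal muscle and brown fat. Its values were 6.51, 6.50, 6.28 and 6.56 in young mice and 7.97, 8.01, 8.44 and 8.35 in old mice. Every old value lay above every young value, with no overlap and a gap between 6.56 and 7.97. The mean rose from 6.46 ± 0.12 to 8.19 ± 0.24 (SD, n = 4 each), a change of 1.73 ± 0.12 (SE) or 3.32-fold (limma adjusted p = 0.000107). The change was 1.49 within title run 1 and 1.98 within title run 2. Cox8b passed in each of 17 fits with another setting or without 1 mouse, with changes from 1.65 to 1.80. Cox8b has 1 probe set on the array, so no other probe set of the gene could be compared.

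Markers of muscle and fat, where Cox8b is best known, did not pass. Of the 12 skeletal muscle markers 0 passed in limma (1 had an unadjusted p under 0.05, higher), and 6 lay above the median of all probe sets in an age. Their mean level was 5.18 to 5.23 in young and 5.21 to 5.39 in old mice. Of the 12, 10 had positive differences, with a median of 0.08. The 1 with an unadjusted p under 0.05 was Mb, at 6.03 to 6.20 in young and 6.22 to 6.32 in old mice (limma adjusted p = 0.304). The largest of the 12 differences was that of Tnnt3, at 0.24 ± 0.11 (limma adjusted p = 0.333). The muscle myosin gene Myh4 lay between 4.13 and 4.17 throughout. Ucp1, the defining gene of brown fat, lay between 5.29 and 5.46 in young and between 5.26 and 5.51 in old mice. Of the 6 measured adipocyte markers 0 passed (0 at an unadjusted p under 0.05), with a mean level of 4.47 to 4.70 in young and 4.52 to 4.74 in old mice. Differences were positive for 4 of the 6 and negative for 2, with a median of 0.02. The largest was that of Cidea, at 4.22 to 4.46 in young and 4.30 to 5.03 in old mice (limma adjusted p = 0.373). In the other marker lists 2 genes rose with Cox8b. Of 8 melanocyte markers this was Mlana, from 6.23 ± 0.59 to 9.10 ± 0.61 (SD, n = 4; limma adjusted p = 0.00194), and the mean level of the list was 5.18 to 5.41 in young and 5.68 to 5.82 in old mice. At an unadjusted p under 0.05, 2 of the 8 differed, both higher. These were Mlana and Mitf, and Mitf changed by 0.57 ± 0.22 (limma adjusted p = 0.231). The pigment genes Tyrp1 and Dct of that list lay between 3.76 and 4.45 on all arrays. Of 7 pericyte and smooth muscle markers it was Kcnj8, from 6.75 ± 0.13 to 7.91 ± 0.35 (SD, n = 4; limma adjusted p = 0.0035), with a list mean of 5.43 to 5.61 in young and 5.61 to 5.72 in old mice. Of 4 Schwann cell markers, Ncam1 fell by 0.94 ± 0.16 (limma adjusted p = 0.0129). The part of any of these cells in the Cox8b result was not tested.

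**Figure D1:**
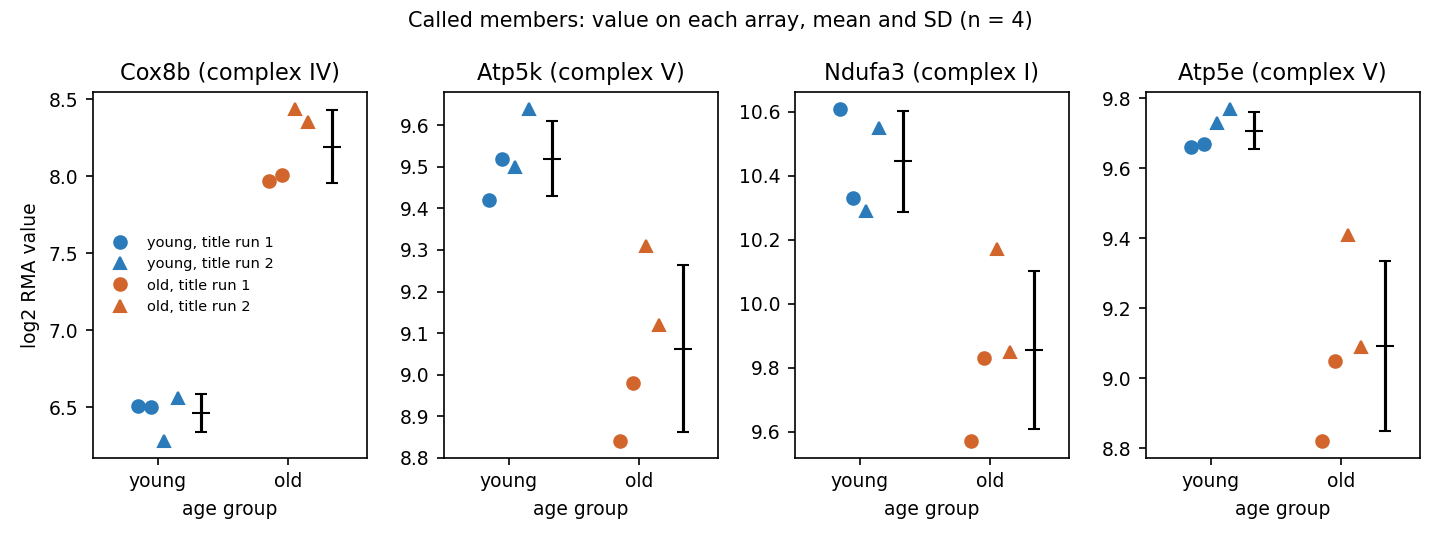
Log2 expression values (vertical axes, which do not start at 0 and differ between panels) of the 4 members past the threshold, on each array of young and old mice, with circles for title run 1 and triangles for title run 2; the black bar is the mean ± SD of 4 mice. Young and old values did not overlap in any panel, and for Atp5e, Atp5k and Ndufa3 old replicate 3 lay nearest to the young mice.

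The other tissue-restricted isoforms of complex IV did not move with Cox8b. Of the 8 measured, 1 rose (12.5%, beside 1.82% of all genes), none fell and 7 did not pass, with a median change of 0.02. Cox7a1, the heart and skeletal muscle form of subunit VIIa, changed by -0.30 ± 0.11 (limma adjusted p = 0.213), and Cox6a2, the muscle form of subunit VIa, by 0.02 ± 0.10. Cox4i2, the lung form of subunit IV, changed by -0.03 ± 0.13. The testis forms Cox6b2, Cox8c and Cox7b2 changed by 0.11 ± 0.08, 0.23 ± 0.16 and 0.02 ± 0.07, and Cox7b2 lay below the median of all probe sets in both ages. Cox7a1, Cox6a2, Cox4i2 and these testis forms lay inside the range of the non-specific control probe sets (2.98 to 7.20) on all arrays. Cox8b did so in young mice only. Whether genes at such levels were expressed was not tested. Ndufa4l2, a hypoxia-inducible relative of Ndufa4, lay at 10.34 ± 0.13 in young and 10.25 ± 0.19 in old mice (SD, n = 4).

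The widely expressed partners of these isoforms did not pass either. Cox8a, the partner of Cox8b, had values of 9.42, 9.82, 9.88 and 9.88 in young and 9.52, 9.39, 9.84 and 9.71 in old mice. The ages overlapped, and the change was -0.14 ± 0.13 (limma adjusted p = 0.741). Cox4i1, Cox6a1, Cox6b1 and Cox7a2 changed by 0.05, -0.17, -0.27 and -0.13, with SEs from 0.08 to 0.14. Ndufa4, a subunit of complex IV despite its name, changed by -0.60 ± 0.19 (limma adjusted p = 0.134), with -0.87 within title run 1 and -0.33 within title run 2. That is close in size to the change of Atp5e, with a larger spread in old mice (SD 0.40, against 0.21 in young mice).

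**Figure D2:**
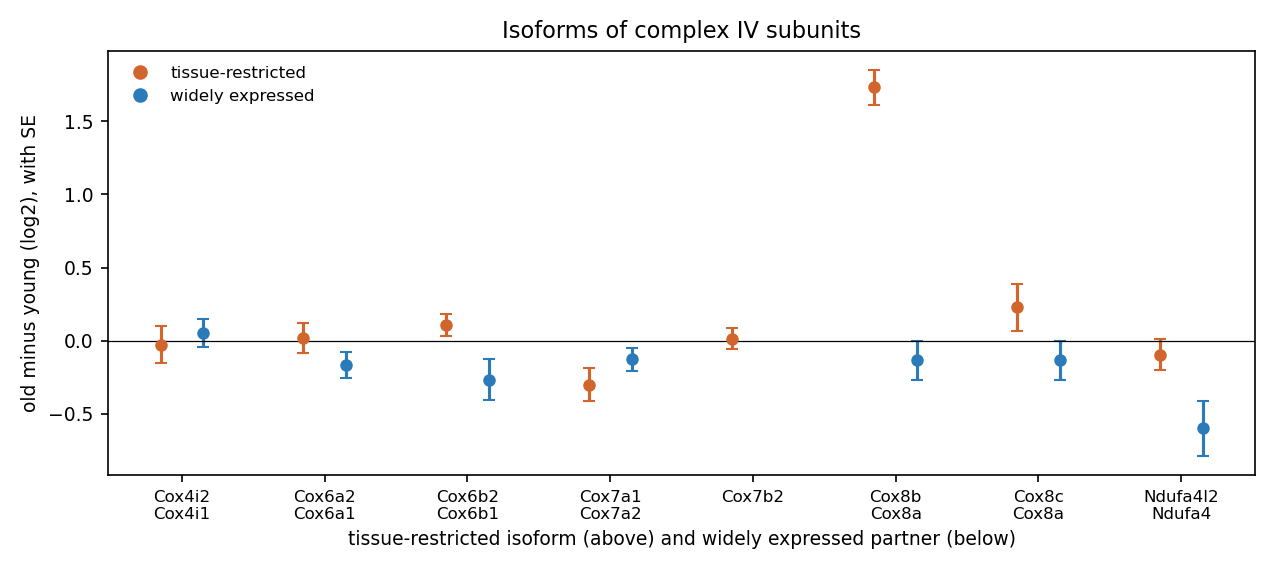
Change from young to old (log2, with SE) of 8 tissue-restricted isoforms of complex IV subunits (orange) beside their widely expressed partners (blue); Cox8a is drawn with both Cox8b and Cox8c, and the partner of Cox7b2 was not among the members. Cox8b, at 1.73, stands above the other 7 isoforms, which lie between -0.30 and 0.23.

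Of all 10 widely expressed complex IV subunits, Ndufa4 and the partners above included, 0 passed in limma. At an unadjusted p under 0.05, 3 differed, all lower (30%, beside 8.28% of all genes). Of the 10, 8 had negative differences, and the median was -0.15. Cox6c, a small membrane subunit, had 11.54, 11.72, 11.68 and 11.55 in young and 11.24, 11.34, 11.43 and 11.39 in old mice, without overlap (-0.27 ± 0.07, limma adjusted p = 0.0806). Its other probe set changed by -0.25. Cox7c changed by -0.27 ± 0.08, also without overlap (limma adjusted p = 0.0934), and by -0.25 and -0.29 within the title runs. Cox5a and Cox5b, subunits Va and Vb, changed by -0.14 ± 0.25 and 0.04 ± 0.09. Cox7a2l, which helps complex IV bind complex III in supercomplexes, changed by 0.15 ± 0.09 (limma adjusted p = 0.515), and its 2 other bright probe sets by 0.24 and 0.25.

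In complex V, 2 small subunits fell while the catalytic subunits stayed near 0. The median change of the 17 members was -0.18. Apart from the 2 that fell (11.8%, beside 2.15% of all genes), 15 did not pass and none rose. Atp5e, the epsilon subunit in the central stalk of F1, had values of 9.66, 9.67, 9.73 and 9.77 in young and 8.82, 9.05, 9.41 and 9.09 in old mice. The young values were tightly grouped and all lay above the old ones. The mean fell by 0.62 ± 0.11 (SE), to 65.3% of the young level (limma adjusted p = 0.0162), with -0.73 and -0.50 within title runs 1 and 2. Without old replicate 2 the change was -0.60 and no longer passed (limma adjusted p = 0.0529).

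Atp5k encodes subunit e of the membrane part Fo, which lies where ATP synthases pair into dimers. Its values were 9.42, 9.52, 9.50 and 9.64 in young and 8.84, 8.98, 9.31 and 9.12 in old mice, without overlap. It fell by 0.46 ± 0.10, to 72.8% of the young level (limma adjusted p = 0.0406), and its other probe set changed by -0.47. Within title runs 1 and 2 the change was -0.56 and -0.36. The call was lost with arrays centred on their median (limma adjusted p = 0.0633) and without any 1 of the mice other than old replicate 3, with limma adjusted p from 0.0667 (without young replicate 1) to 0.119 (without old replicate 2).

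The F1 subunits that form the catalytic hexamer, Atp5a1 and Atp5b, changed by 0.08 ± 0.13 and 0.0025 ± 0.08, and the gamma subunit Atp5c1 by 0.01 ± 0.08. All 12 genes of Fo and the peripheral stalk had negative differences, from -0.46 to -0.02, beside 46.2% of all genes. Ages did not overlap for 4 of the 12 (33.3%), beside 5.21% of all genes and 7.52% of those above the median of all probe sets. Of these, Atp5mpl changed by -0.26 ± 0.08 (limma adjusted p = 0.119), Atp5j2 by -0.40 ± 0.12 (limma adjusted p = 0.130) and Atp5g2, one of the genes of the c ring, by -0.28 ± 0.09 (limma adjusted p = 0.142). The c ring genes Atp5g1 and Atp5g3 changed by -0.18 ± 0.16 and -0.02 ± 0.09, and differences among these 3 genes were not tested. Atp5h, a subunit of the peripheral stalk, changed by -0.14 ± 0.06.

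In complex I, Ndufa3, a small accessory subunit, was the 1 gene of 39 that fell (2.56%, beside 2.15% of all genes), and none rose. Its values were 10.61, 10.33, 10.29 and 10.55 in young and 9.57, 9.83, 10.17 and 9.85 in old mice. The ages did not overlap, although old replicate 3 lay close to the lowest young mouse. The mean fell by 0.59 ± 0.13, to 66.4% of the young level (limma adjusted p = 0.0350), and the other bright probe set changed by -0.54. Within title runs 1 and 2 it changed by -0.77 and -0.41. The call was lost without any 1 of the mice other than old replicate 3, with limma adjusted p from 0.0538 (without young replicate 3) to 0.0982 (without old replicate 2).

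Of the 26 accessory subunits of complex I, Ndufa3 included, 23 had negative differences, and the median was -0.27. An unadjusted p under 0.05 was met by 10 of the 26, all lower (38.5%, beside 8.28% of all genes). Among genes above the median of all probe sets in an age that share was 12.1%. Ndufa3 was the 1 that passed after adjustment. Ndufa2 had 10.23, 10.36, 10.38 and 10.41 in young and 9.93, 9.95, 10.18 and 10.10 in old mice, a change of -0.31 ± 0.08 (limma adjusted p = 0.0704). Ndufs6, a zinc-binding subunit, changed by -0.29 ± 0.08 (limma adjusted p = 0.0894), and both had ages without overlap. Ndufb11 changed by -0.30 ± 0.13 (limma adjusted p = 0.313), with overlapping ages. Ndufc1 changed by -0.47 ± 0.16 (limma adjusted p = 0.175), and a dimmer probe set of it by -0.72 ± 0.15. With the dimmest probe set above the median of all probe sets standing for each gene, Ndufc1 passed.

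The 6 measured core subunits of complex I, which carry electrons over flavin and iron-sulfur clusters, differed by less: from -0.19 to -0.03, with a median of -0.05, and 0 passed in limma (0 at an unadjusted p under 0.05). Ndufv1 and Ndufs1 both changed by -0.04, with SEs of 0.10 and 0.12. The core subunit Ndufs8 changed by -0.51 within title run 1 and by 0.13 within title run 2. The 7 assembly factors had a median of 0.04 and 0 passed (0 at an unadjusted p under 0.05), and 2 of the 7 were too dim to read. The gene named Ndufs5-ps changed by -0.53 ± 0.16 without overlap (limma adjusted p = 0.120). The symbol is that of a pseudogene, and transcripts of near-identical copies cannot be told apart here.

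**Figure D3:**
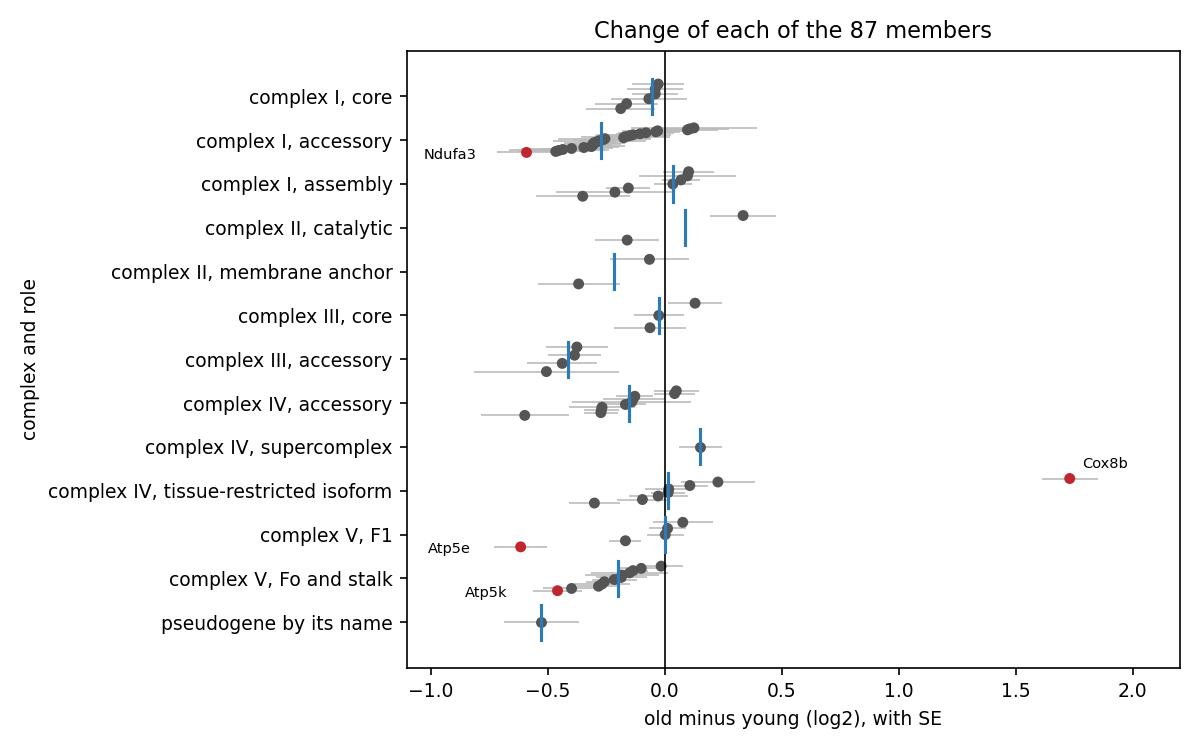
Change from young to old (horizontal axis, log2, with SE) of each of the 87 members, grouped by complex and role; red points passed the threshold, grey points did not, and the blue line is the group's median. The accessory groups of complexes I and III and the Fo group lie to the left of 0, with medians of -0.27, -0.41 and -0.20, and the core groups of complexes I and III lie near 0, at -0.05 and -0.03.

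In complex III, the accessory subunits had larger differences than the core subunits. Of its 7 members 0 passed in limma. At an unadjusted p under 0.05, 3 differed, all lower (42.9%, beside 8.28% of all genes). The 4 small accessory subunits had differences from -0.51 to -0.38. Uqcrq, which lies near the ubiquinone site, had 10.54, 10.71, 10.81 and 10.54 in young and 10.03, 10.19, 10.52 and 10.32 in old mice. The ages nearly met at 10.52 and 10.54 without overlap, and the change was -0.39 ± 0.11 (limma adjusted p = 0.104). Its dimmest probe set above the median of all probe sets, at a mean of 5.56 against 10.46, changed by 0.02 ± 0.05. The difference was thus not seen on that dim probe set, which lay inside the range of the non-specific controls. Uqcr10 and Uqcr11 changed by -0.44 ± 0.15 and -0.38 ± 0.13, and Uqcrb by -0.51 ± 0.31, with an SD of 0.70 among old mice. The core proteins Uqcrc1 and Uqcrc2 and the Rieske iron-sulfur protein Uqcrfs1 changed by -0.03 ± 0.11, -0.06 ± 0.15 and 0.13 ± 0.12. Whether accessory and core subunits differ was not tested.

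Complex II, which is also an enzyme of the citric acid cycle, had 0 of 4 genes that passed in limma (1 had an unadjusted p under 0.05). Sdha, the flavoprotein, had 9.17, 9.18, 9.09 and 8.56 in young and 9.14, 9.30, 9.42 and 9.48 in old mice. Young replicate 4 lay below all other arrays, and the change was 0.34 ± 0.14 (limma adjusted p = 0.297). A second bright probe set of Sdha changed by -0.11 ± 0.13, so the direction depends on the probe set. The iron-sulfur subunit Sdhb changed by -0.16 ± 0.14 and the membrane anchor Sdhc by -0.37 ± 0.18, with old replicate 1 at 6.04 and the other old mice between 6.72 and 6.83.

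Without any threshold on p, the ages did not overlap for 14 members that were lower in old mice (16.1%, beside 5.21% of all genes) and for 1 that was higher, Cox8b (1.15%, beside 4.49%). Among the genes above the median of all probe sets in an age, 7.52% were lower without overlap. The 14 were Atp5d, Atp5e, Atp5g2, Atp5j2, Atp5k, Atp5mpl, Cox6c, Cox7c, Ndufa2, Ndufa3, Ndufs5-ps, Ndufs6, Sdhc and Uqcrq, and their differences ran from -0.62 to -0.17. Of the 38 members with at least 2 probe sets above the median of all probe sets, 26 had the same sign on each of these probe sets.

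The members' levels differed among the old mice. With each gene centred on its mean over the 8 arrays, the median member lay at 0.03, 0.03, 0.11 and 0.13 in young mice and at -0.35, -0.15, 0.08 and 0.01 in old replicates 1 to 4. The old mice of title run 1 thus lay well below all young mice, old replicate 3 lay among them and old replicate 4 just below them. Old replicate 1 held the lowest of the 8 values for 58 members (66.7%), against 19.2% of all genes. In old mice the median member was lower in run 1 than in run 2 by a difference of -0.31, in young mice by -0.08, and for all genes these differences were 0.03 and 0.04.

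Compared within the title runs, old mice had lower values for 78 of 87 members in run 1 (median difference -0.27) and for 50 of 87 in run 2 (median -0.04). Over all genes the medians were 0.005 and 0.01. The age effect was not shown to differ between the runs: the interaction of age and run, a fit chosen after seeing the data, passed for 0 members and for 0% of all genes in limma. At an unadjusted p under 0.05 it was met by 10 of the 87 members and by 7.33% of all genes. Of the 10757 genes above the median of all probe sets in an age, 1120 met it. Of the 10 members, 7 belonged to complex I, 3 of them core subunits. The median of the complex I core subunits was -0.25 in run 1 and 0.13 in run 2, and the assembly factor Ndufaf3 changed by -0.35 and 0.54. Without old replicate 1 the median change of the members was -0.09, and without old replicate 3, the array with the raised keratinocyte markers, it was -0.24. What the runs and those markers contribute was not tested.

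**Figure D4:**
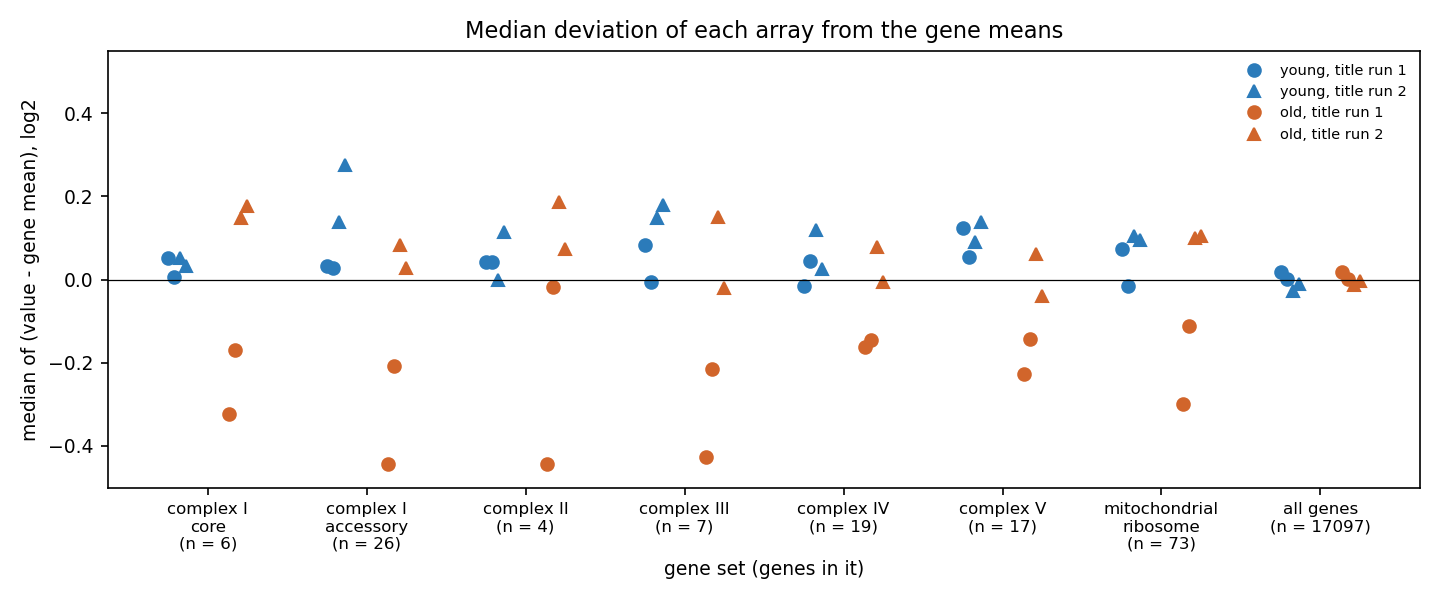
Median over the genes of a set of the value on an array minus the gene's mean over all 8 arrays (vertical axis, log2), for young (blue) and old (orange) mice, with circles for title run 1 and triangles for title run 2. Old replicate 1 is the lowest point in each set of respiratory genes and in the mitochondrial ribosome, and all genes together lie within 0.03 of 0.

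**Figure D5:**
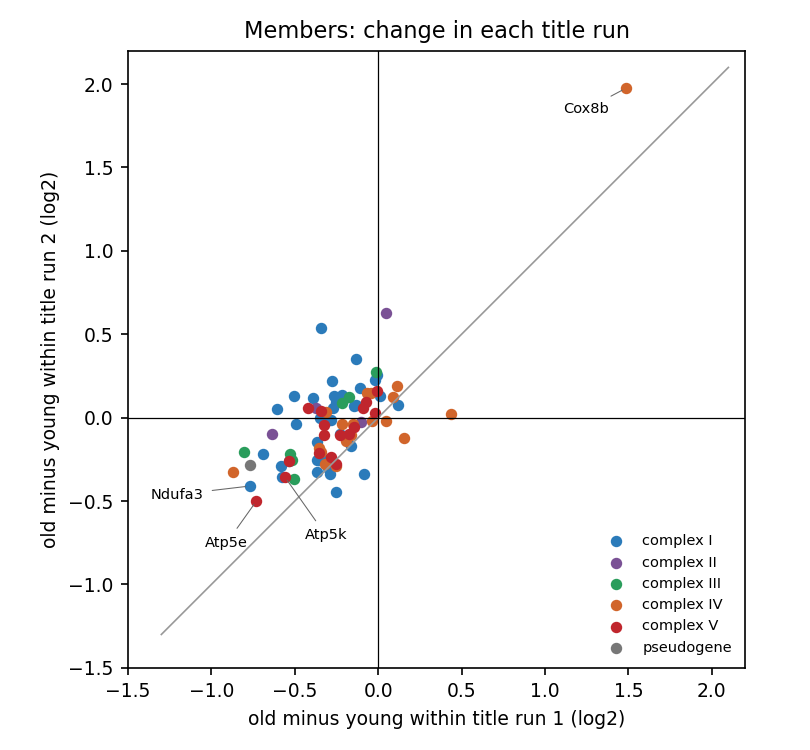
Change from young to old within title run 2 against that within title run 1 (log2, 2 young and 2 old mice in each), for the 87 members by complex; the diagonal marks equal changes. Atp5e, Atp5k and Ndufa3 are negative in both runs and Cox8b is positive in both, while most other members lie to the left of the vertical line and on both sides of the horizontal one.

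Array controls for RNA integrity overlapped between the ages. The difference between the 3′ and 5′ probe sets of actin ran from -0.61 to -0.41 in young and from -0.66 to -0.51 in old mice. That of Gapdh ran from -0.21 to -0.08 and from -0.13 to -0.04.

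Partners of the complexes outside the naming rule were sorted by function. Of 198 such genes in 8 lists, 5 passed limma's threshold (2.53%, beside 3.97% of all genes), 2 higher and 3 lower. Atpif1, the inhibitor that stops the ATP synthase from running backwards, fell by 0.57 ± 0.10, from 10.56 ± 0.12 to 9.99 ± 0.17 (SD, n = 4; limma adjusted p = 0.0117). It passed in each of those 17 fits, with changes from -0.65 to -0.31. Its list of 5 also held cytochrome c (Cycs, -0.11 ± 0.15), the complex III subunit cytochrome c1 (Cyc1, -0.01 ± 0.08) and Cyct, the testis form of cytochrome c (-0.07 ± 0.06), and none of these passed.

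The 73 genes of the mitochondrial ribosome, which makes the subunits encoded by mitochondrial DNA, had a median of -0.11, with 2 lower, none higher and 71 that did not pass. The 2 are 2.74% of the list, beside 2.15% of all genes. Differences were negative for 53 of the 73 (72.6%, beside 46.2% of all genes). At an unadjusted p under 0.05, 12 were lower (16.4%, beside 8.28% of all genes and 12.1% of those above the median of all probe sets in an age) and none higher. Mrpl53 fell by 0.45 ± 0.10 (limma adjusted p = 0.0395) and Mrpl36 by 0.45 ± 0.10 (limma adjusted p = 0.0430). Mrpl53 lost its call without each of the 8 mice in turn (limma adjusted p up to 0.118, without old replicate 2), and Mrpl36 without each of the 4 young mice and old replicates 2 and 3 (up to 0.117, without young replicate 3). Both also lost it with a prior by mean level and with arrays centred on their median. The median of the ribosome list was -0.23 within title run 1 and -0.04 within title run 2.

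Of 39 assembly factors 0 passed in limma, with a median of -0.06. At an unadjusted p under 0.05, 9 differed, and the 8 lower ones are 20.5% of the list, beside 8.28% of all genes. The complex IV factors Pet100 and Cmc2 changed by -0.61 ± 0.17 and -0.38 ± 0.11 (limma adjusted p = 0.0886 and 0.113). Of 15 regulators of mitochondrial genes 0 passed (1 at an unadjusted p under 0.05). The co-activator gene Pprc1 changed by 0.27 ± 0.11 and Gabpb1, a subunit of GABP, by 0.30 ± 0.14. Of 16 genes of pyruvate dehydrogenase and the citric acid cycle 0 passed (2 at an unadjusted p under 0.05), and Suclg2 and Idh3g changed by 0.54 ± 0.18 and -0.15 ± 0.06.

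Among 14 carriers, porins and uncoupling proteins, Slc25a13, a mitochondrial aspartate-glutamate carrier, rose from 4.33 ± 0.05 to 4.73 ± 0.07 (SD, n = 4; limma adjusted p = 0.00879), a level below the median of all probe sets in both ages. Its relative Slc25a12 changed by -0.35 ± 0.11 and did not pass. Of 22 genes of glycolysis and lactate, 1 rose (4.55%, beside 1.82% of all genes) and none fell. This was Ldhb, the lactate dehydrogenase subunit of heart-type enzyme, which rose by 0.64 ± 0.11 (limma adjusted p = 0.0129), with 0.45 and 0.84 within the title runs, and passed in each of those 17 fits. The glucose transporter gene Slc2a1 changed by -0.35 ± 0.12. Of 14 hypoxia response genes 0 passed (4 at an unadjusted p under 0.05), with Bnip3 at 0.67 ± 0.17 and Bhlhe40 at 0.48 ± 0.12 (limma adjusted p = 0.0606 and 0.0609).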

How the data were processed

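The authors deposited log2 expression values of 45141 probe sets on 8 arrays, 1 array per mouse, and the submitters' processing notes name RMA and affy, without versions. RMA corrects the background, brings all arrays to a common distribution and summarises probes, so a change shared by most genes would not be seen.

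Symbols came from the platform annotation: 28898 probe sets had 1 symbol, 551 several and 15692 none, and those with several or none were left out. Old minus young was tested with limma 3.58.1 (R 4.3.3) over all 17097 genes with Benjamini-Hochberg adjustment and a threshold of 0.05, tested on simulated data. Array signals carry no read depth, and the number of mice limits precision.

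Named genes were all members past the threshold, the 3 with the smallest p and the brightest in each complex, each tissue-restricted isoform with its partner, in the other lists those past the threshold and the 2 with the smallest p, and the genes of the sorting gate. Other members named were chosen after their values were seen, to show each role. The members and lists were chosen with earlier results of these data known. Alternatives were 3 other variance or weighting settings, the dim-gene filter, the choice of probe set, the scaling, the title run as a block, and each mouse left out in turn. Fits within each title run and the interaction of age and title run were added after seeing the data.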

Additional observations from a re-analysis of the deposited data

Results flagged for a closer look

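Among 112 sets of 4 values, each a named gene in 1 age, 4 held a mouse far from the other 3. Chance flags about 5% of such sets. Sdha was at 8.56 in young replicate 4 and between 9.09 and 9.18 in the other young mice. Sdhc was at 6.04 in old replicate 1 and between 6.72 and 6.83 in the other old mice. Cox6b2 was at 5.57 in old replicate 2 and between 5.33 and 5.37 in the others of that age. Cox8a was at 9.42 in young replicate 1 and between 9.82 and 9.88 in the others of that age.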

How the results depend on the processing

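In the planned fits the median change of the members stayed negative, and without each mouse in turn it ran from -0.24 to -0.09. Array weights also gave -0.09, and the fits within title runs 1 and 2 gave -0.27 and -0.04. Over all genes, 679 passed, 427 to 606 without each mouse in turn, 225 within title run 1 and 141 within title run 2; the other settings gave 590 to 952. Of the members 4 passed: 7 with quantile normalization run again (with Ndufa2, Ndufs6 and Uqcrq besides), 1 to 6 without each mouse in turn, 2 within title run 1 and 1 within title run 2. Of the other genes of the pathway 5 passed: 10 with array weights, 3 with arrays centred on their median, 9 with quantile normalization run again, 3 to 6 without each mouse in turn and 1 within title run 2. The fits within a run hold fewer mice; for the other settings the cause was not tested.

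With the title run as a replicate block, 919 of 17097 genes passed, among them 10 of the 87 members and 9 other genes of the pathway. The 10 were Atp5e, Atp5j2, Atp5k, Cox8b, Ndufa1, Ndufa2, Ndufa3, Ndufc1, Ndufs5-ps and Ndufs6. Deviations from the age means correlated at 0.0706 to 0.239 between young and old mice of the same run and at -0.257 to -0.0235 across runs. Every same-run correlation was thus positive and every cross-run correlation negative. Deviations from an age mean cancel out over the mice of that age. Positive correlations within runs therefore bring negative ones across runs on average, and the negative ones are not a separate observation. Since not every same-run pair exceeded 0.1, the runs were not taken as pairs in the main fit. This cut does not show that the runs had no effect.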
